A study of Mus musculus with 4 samples.

Results

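The genes described here encode the molecules that load peptides and show them to T cells, and they were chosen by symbol from the deposited tables: H2-K1, H2-D1, B2m, Tap1, Tap2, Tapbp, Nlrc5, H2-Ab1, Cd74 and Ciita. All 10 had a row among 17478 listed genes, and 9 of the 10 passed the filter on low counts that left 12677 genes for testing. The tenth, Ciita, had too few counts to test. RNA was sequenced from mouse CD4+ T cells, sorted as naive cells (CD44lo CD62Lhi) from spleen and lymph nodes of C57BL/6 animals aged 6 to 8 weeks. They were activated with antibodies to CD3 and CD28 and kept for 3 days in Th9 conditions, which favour helper cells that secrete interleukin 9. The 2 wild-type libraries came from mice labelled wild type, and the 2 knockout libraries from mice labelled BFAR-/-, described as conditionally deficient in T cells. No source used here gives the driver of the deletion, the deleted exons, the cytokines of the culture or the number of mice per library. Nor do the labels call the replicates separate mice, and p-values therefore measure the spread between these libraries alone, which may be technical.

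Class I molecules are cell-surface heavy chains, such as those of H2-K1 and H2-D1, that pair with beta-2 microglobulin (B2m) and carry peptides pumped into the endoplasmic reticulum by the Tap1 and Tap2 transporter with the help of tapasin (Tapbp). Nlrc5 is the transactivator of class I genes and Ciita that of class II genes, and both act through factors bound to the conserved boxes of these promoters. Class II molecules consist of an alpha and a beta chain (H2-Aa and H2-Ab1 in C57BL/6 mice) that assemble on the invariant chain Cd74. All nucleated cells carry class I, whereas class II belongs to B cells, dendritic cells and macrophages, and mouse T cells are known for showing little of it.

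The promoter sequences of class I pathway members are shown because these genes share a route of control. The RefSeq promoter table (GRCm38.p6, the genome build also named in the submitters' processing notes) gave a window of 300 bases, from 250 before to 50 after a transcript start, for 5 members whose sequence could be read: H2-K1, H2-D1, B2m, Tap1 and Tapbp. Each window is written 5′ to 3′ along the gene's strand, and capitals mark matches to 4 short motifs. The H2-K1 window, the first of 2 listed for that gene, is chr17:34000298-34000597 on the minus strand, that of H2-D1 chr17:35262844-35263143 on the plus strand, that of B2m chr2:122147437-122147736 on the plus strand and that of Tap1 chr17:34187306-34187605 on the plus strand.
H2-K1: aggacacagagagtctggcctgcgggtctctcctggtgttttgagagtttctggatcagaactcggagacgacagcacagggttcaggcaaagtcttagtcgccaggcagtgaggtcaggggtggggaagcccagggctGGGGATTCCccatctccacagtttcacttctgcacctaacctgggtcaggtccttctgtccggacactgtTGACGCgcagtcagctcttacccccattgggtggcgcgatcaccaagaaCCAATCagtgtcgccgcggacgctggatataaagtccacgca
H2-D1: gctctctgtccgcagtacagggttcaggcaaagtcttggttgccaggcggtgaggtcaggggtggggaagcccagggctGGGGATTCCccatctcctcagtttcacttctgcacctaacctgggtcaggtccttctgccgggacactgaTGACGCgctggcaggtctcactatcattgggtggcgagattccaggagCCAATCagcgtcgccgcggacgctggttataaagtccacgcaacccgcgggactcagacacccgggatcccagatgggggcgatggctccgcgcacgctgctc
B2m: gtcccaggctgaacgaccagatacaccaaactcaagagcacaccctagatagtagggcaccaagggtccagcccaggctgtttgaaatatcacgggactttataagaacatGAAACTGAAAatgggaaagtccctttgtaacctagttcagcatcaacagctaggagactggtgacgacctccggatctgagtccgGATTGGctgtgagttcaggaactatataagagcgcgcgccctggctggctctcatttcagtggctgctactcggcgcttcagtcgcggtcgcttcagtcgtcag
Tap1: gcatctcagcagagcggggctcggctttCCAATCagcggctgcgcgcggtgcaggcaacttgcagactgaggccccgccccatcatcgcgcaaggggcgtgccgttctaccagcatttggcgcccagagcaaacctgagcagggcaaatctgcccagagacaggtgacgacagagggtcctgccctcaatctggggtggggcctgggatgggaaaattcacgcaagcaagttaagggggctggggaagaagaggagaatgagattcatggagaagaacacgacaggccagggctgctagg

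The motifs, searched on both strands, were the NF-kB core (GGG, any 2 bases, TTCC), the cyclic AMP response-like X2 core TGACGC, the Y box GATTGG that NF-Y binds, and the interferon response core (GAAA, any 2 bases, GAAA). None of the 4 overlapped another in these windows. H2-K1 and H2-D1 each held an NF-kB core, an X2 core and a reverse-strand GATTGG match in that order. In both, the start of the NF-kB core lay 70 bases from the start of the X2 core. Both also held the unmarked letters attggg between the X2 core and that match. The search for GATTGG could not mark them, and which stretch acts as the Y box was not determined. With the H2-K1 and H2-D1 windows set against each other at an offset of 60 bases, 73.3% of 240 aligned bases were identical. B2m held an interferon response core 139 bases before its start and a Y box 54 bases before it. Tap1 held a Y box at 222 bases, and the Tapbp window held none of the 4 motifs. Of 32851 promoter windows in the table, 5.82% held the NF-kB core, 7.40% the X2 core, 16.1% the Y box and 3.44% the interferon response core. The start used for H2-K1 lies 272 bases inside the gene's outer boundary, so its whole window is within the annotated gene. Its GATTGG match begins at base 9 after that start. A match describes letters and does not show that a factor binds there. Looser forms of the motifs were not searched, so a window without a mark may still hold such an element. The H2-K1 and H2-D1 windows both hold agtttcacttct after the NF-kB core. Read on the other strand, it resembles the interferon response core but could not be marked.

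The question put to these libraries was how the loss of Bfar, a gene for an endoplasmic reticulum protein with a RING finger that attaches ubiquitin, changes Th9 cells. As a check of the labels, Bfar had 36.4 and 32.9 CPM (counts relative to the scaled library total) in wild type against 8.45 and 7.79 in the knockout, where it was far lower in each library. The libraries held 19058009 to 19782923 expected counts. Over all tested genes, 13.6% were higher and 13.2% were lower in the knockout at an adjusted p under 0.05 (edgeR quasi-likelihood test, Benjamini-Hochberg adjustment over 12677 genes), 26.8% in all. The T cell label held, with Cd4 at 581 to 702 CPM and Cd3e at 175 to 208 CPM. Of the 9 T cell markers examined, 6 were higher in the knockout and 1 was lower, with a median log2 fold change of 0.21, so modest rises also occurred in abundant T cell genes outside antigen presentation. Cd4 rose by 0.23 ± 0.04 (SE) and Cd5, an inhibitory surface receptor, fell by 0.20 ± 0.04 on the log2 scale. In bulk RNA, fewer cells of a type and less RNA per cell cannot be told apart.

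Of the 9 tested members, 4 rose (Nlrc5, H2-Ab1, Tap1 and H2-D1), 1 fell (Cd74) and 4 did not pass (H2-K1, B2m, Tap2 and Tapbp). The share called, 5 of 9, stands beside 26.8% of all tested genes. The median over these genes was 0.09 as a log2 ratio of knockout to wild type, beside 0.00 for all tested genes. The CPM values of the genotypes did not overlap for 7 of the 9, against 63.5% of all tested genes, so separation of 2 libraries from 2 was common throughout these data.

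**Figure D1:**
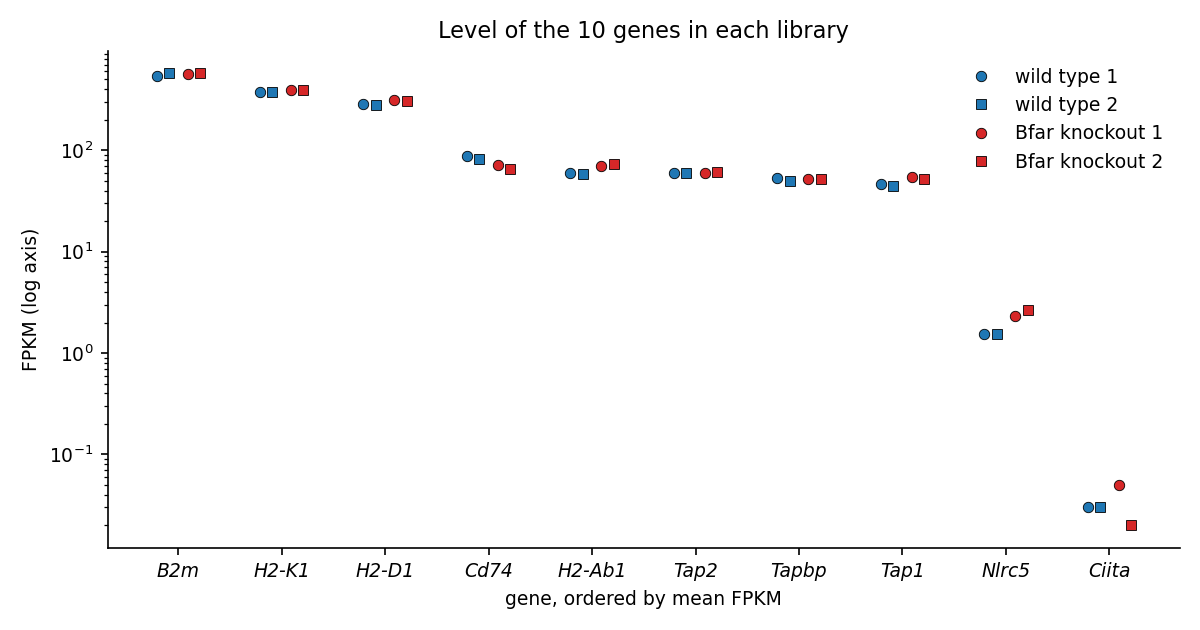
FPKM (deposited, fragments per kilobase scaled to depth, log axis) of the 10 genes in each library, ordered by mean level; blue is wild type, red is Bfar knockout, and circles and squares are replicates 1 and 2. B2m lies between 535.5 and 574.2, Nlrc5 between 1.54 and 2.65, and Ciita between 0.02 and 0.05.

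Levels between genes were compared in FPKM, which is per transcript length. B2m stood highest, with 535.5 and 572.5 FPKM in wild type and 564.1 and 574.2 in the knockout, a range above that of every other member. H2-K1 followed at 372.2 to 397.2 and H2-D1 at 279.5 to 312.2, and all 3 lay at or above percentile 98.9 of listed genes by mean FPKM. The remaining class I machinery sat close together, with Tap2 at 59.9 to 60.5, Tapbp at 49.9 to 53.2 and Tap1 at 44.5 to 54.0 FPKM. Tap1 was below Tapbp in both wild-type libraries and above it in both knockout libraries, but only narrowly in knockout 2 (52.60 against 52.25 FPKM). Their ranges over all libraries overlapped, so this pair is called not separated. Cd74, at 65.5 to 87.3 FPKM, lay above all 3 of these genes in every library, and H2-Ab1 was at 58.1 to 73.9. The transactivators were far lower. Nlrc5, at 1.54 to 2.65 FPKM, was near the middle of all listed genes, and Ciita was at 0.02 to 0.05.

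Nlrc5 showed the largest change among the members. This gene (gene 434341, chromosome 8, 94434335 to 94527272) had 10.9 and 10.8 CPM in wild type and rose to 16.4 and 18.7 in the knockout. Both knockout libraries were above both wild-type libraries, by more than the spread within either genotype. The mean level was 61.7% higher (log2 0.69 ± 0.10, SE, with n = 2 in each genotype and an edgeR adjusted p of 0.000133). By size of change it ranked 690 of 12677 tested genes. Genes called higher had a median log2 fold change of 0.31.

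Of the classical heavy chains, H2-D1 rose and H2-K1 did not pass. H2-D1 (gene 14964, chromosome 17, 35263094 to 35267497) had 489 and 483 CPM in wild type and 541 and 535 in the knockout. The groups did not overlap, and the rise was 10.6% (log2 0.15 ± 0.03, edgeR adjusted p = 0.00583). Its call was lost without wild type replicate 2 (adjusted p = 0.0548) or without Bfar knockout replicate 1 (0.0541). H2-K1 (gene 14972, chromosome 17, 33996012 to 34000619) had 621 and 618 CPM in wild type and 661 and 656 in the knockout. These values did not overlap either, but the log2 fold change was 0.09 ± 0.03 with an edgeR adjusted p of 0.0654, and it passed with upper-quartile factors (0.0421) and in limma-voom (0.0497). Both heavy chains were thus higher in both knockout libraries by small amounts, and each call depended on the method or the libraries. H2-D1 also missed the threshold on unfiltered log2(FPKM + 0.1) values (limma adjusted p = 0.0731).

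Their individual values are uncertain because class I genes share sequence. Of the 31-mers of their annotated transcripts, 26.5% of those of H2-D1 and 22.7% of those of H2-K1 also occur in another listed gene, and the authors' counting divides such reads by estimation. When the counts of 23 class I heavy chain genes of the H2 locus were summed, the total was 1529 and 1526 CPM in wild type and 1681 and 1687 in the knockout. This total was higher in the knockout (log2 0.14 ± 0.03, edgeR adjusted p = 0.00385). H2-K1 and H2-D1 made up 70.6% to 72.6% of it in each library.

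B2m, the light chain of class I molecules, did not pass. It had 447 and 478 CPM in wild type and 472 and 482 in the knockout, so the genotypes overlapped (log2 0.04 ± 0.04, edgeR adjusted p = 0.445). Without wild type replicate 1 its log2 fold change was just below 0, and it did not pass in any alternative fit.

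Of the transporter subunits, Tap1 rose and Tap2 did not pass. Tap1 (gene 21354, chromosome 17, 34187556 to 34197225) had 136 and 132 CPM in wild type and 160 and 156 in the knockout. Both knockout libraries were higher, and the rise was 18.2% (log2 0.24 ± 0.04, edgeR adjusted p = 0.00051). Tap2, which forms the transporter with Tap1, had 149 and 150 CPM in wild type and 151 and 152 in the knockout (log2 0.02 ± 0.04, edgeR adjusted p = 0.797). The FPKM ratio of Tap1 to Tap2 was 0.770 and 0.741 in wild type and 0.895 and 0.869 in the knockout, and the difference between the genes was not tested. Tapbp, the bridge between transporter and heavy chain, had 146 and 137 CPM in wild type and 145 in each knockout library (log2 0.03 ± 0.04, edgeR adjusted p = 0.672). The Tap1 start lies back to back with that of Psmb9, an immunoproteasome subunit gene, and their promoter windows share 275 bases. Psmb9 had 29.0 and 28.4 CPM in wild type and 28.0 and 31.02 in the knockout (log2 0.04 ± 0.07, edgeR adjusted p = 0.728). These 2 neighbours share little transcript sequence, at most 4.79% of 31-mers. Tap1 passed while Psmb9 did not, but the difference between these 2 genes was not tested. The FPKM ratio of Tap1 to Psmb9 was 1.24 and 1.22 in wild type and 1.51 and 1.33 in the knockout.

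**Figure D2:**
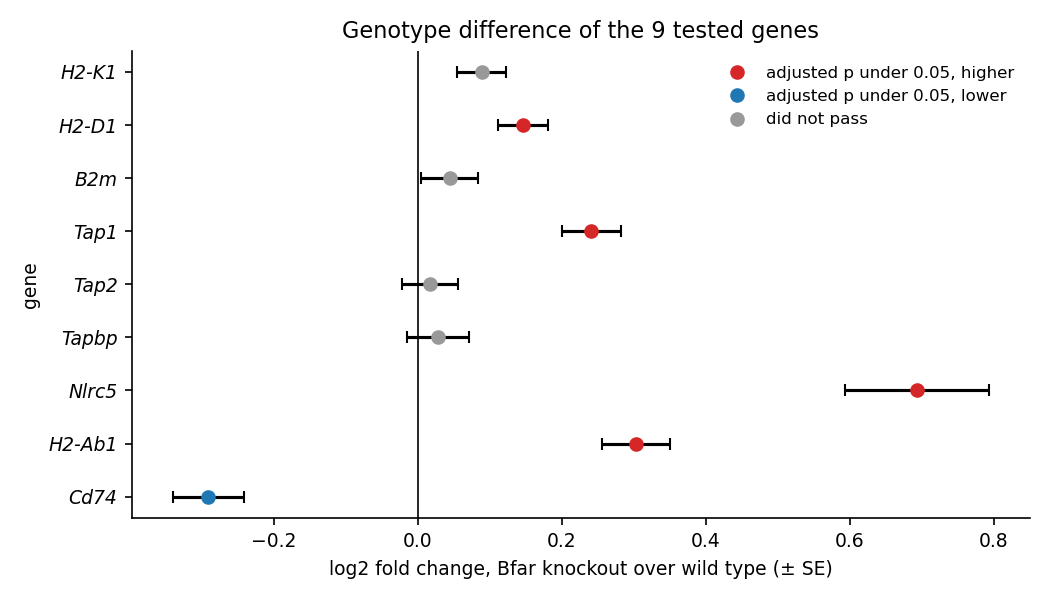
Log2 fold change (Bfar knockout over wild type, edgeR) of the 9 tested genes with its standard error, 2 libraries per genotype; red marks genes higher, blue lower and grey those that did not pass an adjusted p of 0.05. Nlrc5 stands farthest from 0 at 0.69, and Cd74 is the member on the negative side, at -0.29.

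H2-Ab1 and Cd74, the class II members with measurable counts, moved in opposite directions. H2-Ab1 (gene 14961, chromosome 17, 34263227 to 34269418) had 69.6 and 68.3 CPM in wild type and 82.8 and 87.3 in the knockout. Both knockout libraries were higher, by 23.3% (log2 0.30 ± 0.05, edgeR adjusted p = 0.000262). Cd74 (gene 16149, chromosome 18, 60803849 to 60812652) had 109 and 104 CPM in wild type and 90.5 and 83.4 in the knockout. Both knockout libraries were lower (log2 -0.29 ± 0.05, edgeR adjusted p = 0.000485), a fall of 18.3%. The FPKM ratio of H2-Ab1 to Cd74 was 0.678 and 0.706 in wild type and 0.982 and 1.13 in the knockout. The abundance-weighted transcript length that the authors' tables give for Cd74, which has 2 listed transcripts, was 1266.55 and 1276.08 bases in wild type and 1276.80 and 1283.61 bases in the knockout. These lengths differed little, and nearly met between wild type 2 and knockout 1.

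Counts for the beta chain H2-Ab1 stood nearly without counts for its alpha chain. The reads were not analysed here, so which part of the H2-Ab1 gene they cover is not known. H2-Aa had 3 and 11 counts in wild type and 18 and 9 in the knockout, or 0.14 to 0.87 FPKM, where H2-Ab1 had 1350 to 1658 counts and 58.1 to 73.9 FPKM. H2-Eb1, another class II beta chain gene, was likewise low, at 0.43 to 0.78 FPKM, and so was the H2-Ob gene between Tap2 and H2-Ab1, at 0.33 to 0.53. Ciita had 3 counts in each wild-type library and 5 and 2 in the knockout ones, and 3 counts correspond to 0.152 to 0.157 CPM, so a difference in Ciita was not detectable at this depth. H2-Ab1 shared 0.267% of its 31-mers with other listed genes, so a near-identical copy was not found for it.

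**Figure D3:**
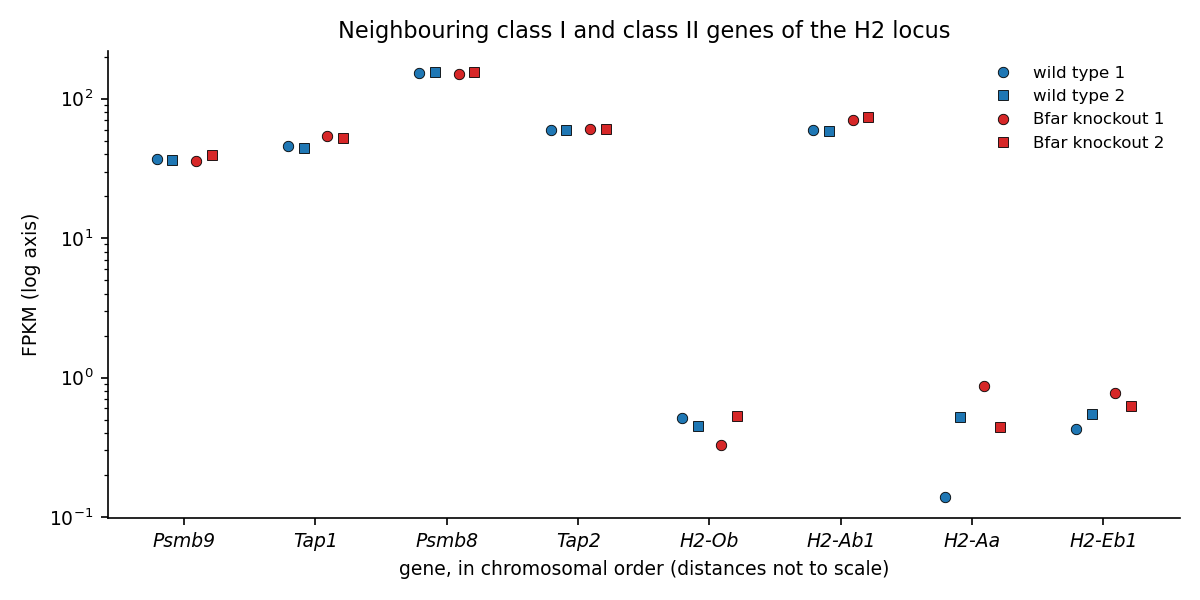
FPKM (log axis) of 8 neighbouring genes at the class II end of the H2 locus on chromosome 17, in chromosomal order with distances not to scale; colours and symbols are as in the plot of levels. H2-Ab1, at 58.1 to 73.9 FPKM, lies between H2-Ob and H2-Aa, which are both below 1 FPKM in every library.

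Markers of the cells that normally carry class II were examined beside these results. Of 10 B cell markers 7 had a row and 4 were tested, and their summed level was 7.47 and 8.00 CPM in wild type and 6.38 and 6.06 in the knockout, with Cd79b the most abundant marker at 3.00 to 4.71 CPM. Ms4a1 had 0 to 2 counts per library and so did Pax5, the lowest of the B cell markers with a row. Cd79a had 8 to 20 counts, Blnk 12 to 22 and Cd22 15 to 32, so B cell transcripts were low but not absent. The B cell sum and Cd74 were both lower in the knockout, but the B cell markers did not move together. Cd79b, Blnk and Cd22 were lower in both knockout libraries, whereas Cd79a went from 0.50 and 0.40 CPM to 0.78 and 1.05. None of the 4 tested B cell markers passed in edgeR, DESeq2 or limma-voom. At an unadjusted p under 0.05, 1 was higher (Cd79a) and 1 lower (Cd79b). The summed dendritic cell list, at 111.0 and 117.6 CPM in wild type and 87.5 and 107.3 in the knockout, came mostly from Batf3 and Ccl22, which activated T cells also express. Of its 7 tested genes 2 rose (Xcr1 and Cd80) and 2 fell (Batf3 and Ccl22) in edgeR and none in DESeq2. Zbtb46 had 41 to 67 counts and Itgax 9 to 28, whereas Flt3 had 0 to 4 counts and Clec9a 0 or 1. The monocyte and macrophage list summed to 5.11 to 6.48 CPM, mostly Cd68, with Cd163 at 6 to 16 counts and Cd14 at 0 or 1. The natural killer and innate lymphoid list summed to 2.90 to 4.04 CPM, mostly Eomes. CD8 T cell markers summed to at most 11.6 CPM. The part of any such cells in the H2-Ab1 and Cd74 values was not tested.

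The wider pathway was then read from lists of genes by role. Among 18 tested class I and class I-like heavy chain genes outside the members, 7 rose and none fell, where 13.6% of all tested genes rose and 13.2% fell, with a median log2 fold change of 0.22 beside 0.00 for all tested genes. By DESeq2 3 rose and 0 fell, by limma-voom 6 and 1, and at an unadjusted p under 0.05 9 were higher and 1 lower. The 7 were H2-Q4, H2-Q5, H2-Q7, H2-Q8, H2-Q9, H2-Q10 and Hfe, of which H2-Q4, H2-Q9 and Hfe were named after their values were seen. H2-Q5 had 22.9 and 22.8 CPM in wild type and 33.4 and 33.7 in the knockout (log2 0.55 ± 0.07, edgeR adjusted p = 3.54e-05). H2-Q8 went from 2.42 and 2.08 to 5.44 and 6.58 CPM (log2 1.42 ± 0.18), and H2-Q10 from 2.67 and 2.33 to 4.72 and 4.37 (log2 0.86 ± 0.18). H2-Q7, which encodes a Qa-2 antigen, had 29.2 and 31.1 CPM in wild type and 36.6 and 52.2 in the knockout, and its near copy H2-Q9 22.3 and 20.2 against 38.1 and 22.2, so the knockout library high in H2-Q7 was low in H2-Q9. Without Bfar knockout replicate 2, the log2 fold change of H2-Q7 was 0.28. H2-Q7 did not pass in DESeq2 (adjusted p = 0.126) or in edgeR without a filter (0.0946). It also missed on unfiltered log2(FPKM + 0.1) values (limma adjusted p = 0.18). Of the H2-Q genes compared, between 23.8% (H2-Q1) and 56.6% (H2-Q5) of the 31-mers occur elsewhere, so single values in this family are uncertain. H2-Q8 and H2-Q9 had no transcript sequence in that comparison, so how much of theirs is shared was not measured. By contrast H2-T23, which encodes the Qa-1 antigen that displays leader peptides, had 150 and 152 CPM in wild type and 153 and 164 in the knockout and did not pass (edgeR adjusted p = 0.249; named after its value was seen).

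Genes that chaperone, trim or cut class I peptides were read next. Of 8 loading and trimming genes 2 rose and none fell, where 13.6% of all tested genes rose and 13.2% fell. The list median was 0.01. The 2 were the aminopeptidase genes Erap1 (log2 0.17 ± 0.05, edgeR adjusted p = 0.0283) and Lnpep (0.16 ± 0.05, adjusted p = 0.0338). Neither passed in DESeq2 (adjusted p = 0.22 and 0.144), in edgeR without a filter (0.0693 and 0.153) or in the FPKM fits. Erap1 did not pass with any library left out (adjusted p 0.0643 to 0.19). Lnpep did not pass without wild type replicate 1 (0.0692), wild type replicate 2 (0.205) or Bfar knockout replicate 2 (0.335). The folding chaperone Calr, one of the most abundant genes of the pathway, was between 734 and 766 CPM in every library. None of 5 immunoproteasome and proteasome activator genes passed in edgeR, DESeq2 or limma-voom, and at an unadjusted p under 0.05 0 were higher and 2 lower. Psmb8, an immunoproteasome catalytic subunit, had 184 and 186 CPM in wild type and 181 and 188 in the knockout. Of the 3 constitutive catalytic subunits Psmb5 fell, from 96.2 and 103 to 78.9 and 84.1 CPM (log2 -0.29 ± 0.05, edgeR adjusted p = 0.00055).

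**Figure D4:**
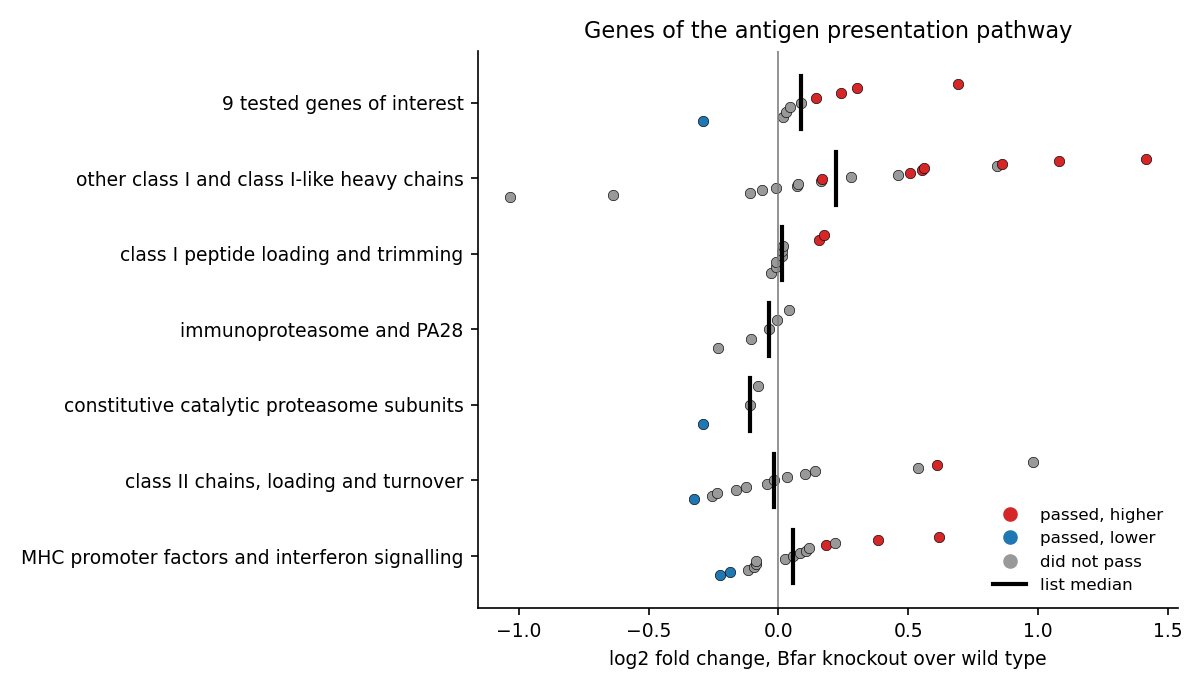
Log2 fold change (Bfar knockout over wild type) of tested genes by role, a point per gene; red passed and was higher, blue passed and was lower, grey did not pass, and the black bar is the list median. The medians run from -0.11 for the constitutive proteasome subunits to 0.22 for the other heavy chains.

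In the class II list of 13 tested genes, 1 rose and 1 fell, where 13.6% of all tested genes rose and 13.2% fell. The list median was -0.02. Ifi30, a lysosomal thiol reductase that unfolds antigens for class II loading, had 35.6 and 33.0 CPM in wild type and 53.7 and 51.1 in the knockout (log2 0.61 ± 0.06, edgeR adjusted p = 3.46e-06). Ctsl, a lysosomal protease, went from 10.3 and 9.92 to 8.09 and 8.06 CPM (log2 -0.32 ± 0.11, edgeR adjusted p = 0.0437) and did not pass with any library left out (0.104 to 0.184) or in DESeq2 (0.314). H2-DMa, a chain of the class II peptide editor, had 44.2 and 42.7 CPM in wild type and 44.0 and 35.8 in the knockout and did not pass (edgeR adjusted p = 0.266; named after its value was seen).

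Of 15 promoter factors and interferon signalling genes 3 rose and 2 fell, with a median of 0.06, a share called that was near the 26.8% of all tested genes. Rfxank, a subunit of the RFX complex that binds the X box of MHC promoters, had 17.6 and 17.9 CPM in wild type and 28.0 and 26.5 in the knockout (log2 0.62 ± 0.08, edgeR adjusted p = 4.1e-05). Its value is uncertain, since 31.03% of its 31-mers lie in the overlapping gene Nr2c2ap, which had 13.5 and 13.8 CPM against 13.1 and 12.3 and did not pass (adjusted p = 0.45). The adjoining gene Borcs8 rose in counts (log2 0.51 ± 0.07, edgeR adjusted p = 6.36e-05), but its listed transcript length was also longer in the knockout, 2011 and 2012 bases against 1497 and 1544, and its FPKM was 16.75 and 15.97 in wild type and 17.24 and 17.50 in the knockout. The other RFX subunit genes in the list, Rfx5 (log2 -0.09 ± 0.07) and Rfxap (0.12 ± 0.09), did not pass (named after their values were seen; edgeR adjusted p = 0.325 and 0.34). Stat2, which carries type I interferon signals, had 40.9 and 41.0 CPM in wild type and 53.0 and 54.0 in the knockout (log2 0.38 ± 0.05, edgeR adjusted p = 9.76e-05). Ezh2, the methyltransferase of a repressive histone mark, fell by 0.23 ± 0.04. Nfyc, a subunit of the Y box factor NF-Y, fell by 0.19 ± 0.06 (edgeR adjusted p = 0.0213), and its partner Nfyb rose by 0.18 ± 0.06 (adjusted p = 0.0385). Nfyb did not pass without wild type replicate 1 (0.0625), wild type replicate 2 (0.236) or Bfar knockout replicate 2 (0.309), nor in DESeq2 (0.217), without a filter (0.137) or in the FPKM fits (0.105 to 0.214). Nfyc did not pass in DESeq2 (adjusted p = 0.178), in edgeR without a filter (0.0759) or on unfiltered log2(FPKM + 0.1) values (limma, 0.098). With a library left out, the log2 fold change of Nfyc ran from -0.23 to -0.14.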

How the data were processed

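The 4 libraries were sequenced by Illumina HiSeq, per the labels' protocols. The submitters' processing notes name Bowtie and RSEM, with no version, and build GRCm38 (mm10). The expected counts were made by the authors by estimation, per the file headers and those notes, and divide reads that match several genes. The FPKM values and abundance-weighted lengths in bases were deposited beside them by the authors. No source used here states the filters or the strand setting. Genes absent from 1 table counted as 0 in it.

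Expected counts were rounded and tested with edgeR 4.0.16 (quasi-likelihood, two-sided, TMM, filterByExpr with minimum count 10 and minimum total 15) in R 4.3.3, with genotype as the factor and Benjamini-Hochberg adjustment at 0.05 over 12677 genes. The code was tested on simulated data. A standard error is the absolute log2 fold change divided by the square root of F. Alternatives were DESeq2 1.42.0, limma 3.58.1 (voom, and log2 FPKM with pseudocounts of 0.1 and 1), other normalizations and filters, the replicate number as a block, and leaving out each library. Floors cover counting error only. Libraries differed beyond sampling noise, with a chi-square over its degrees of freedom of 2.15 within wild type, 2.47 within knockout and at least 13.4 across genotypes. Shared 31-mers came from GENCODE M21 transcripts, which matched 15911 listed genes.

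The naming rule took the 10 members, Bfar, up to 4 called genes per list by adjusted p, and up to 3 abundant markers of other cells. Further genes, such as Calr, Psmb8, Psmb9, Borcs8, Nfyb and H2-Ob, were named after their values were seen. So were the markers Ms4a1, Pax5, Cd79a, Xcr1, Zbtb46, Itgax, Flt3, Clec9a and Cd14. Members and lists were chosen with earlier results of these data known. A few genes of these lists are not reported here by name.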

Additional observations from a re-analysis of the deposited data

How the results depend on the processing

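Nlrc5 (0.60 to 0.79), H2-Ab1 (0.26 to 0.34), Tap1 (0.22 to 0.27) and Cd74 (-0.35 to -0.23) kept their direction and passed with any library left out. They missed the threshold in 1 alternative, unfiltered log2(FPKM + 0.1), where fewer genes passed overall (143 higher and 116 lower) and the members had 0 calls either way: Nlrc5 0.65 (adjusted p = 0.076), H2-Ab1 0.30 (0.0566), Tap1 0.24 (0.0609), H2-D1 0.14 (0.0731) and Cd74 -0.31 (0.0923). With a library left out H2-D1 ranged from 0.14 to 0.15. H2-K1 passed with upper-quartile factors (0.10), in limma-voom (0.089) and with the replicate block (0.089, adjusted p = 0.0301). The class I sum, which holds H2-K1, H2-D1 and other called genes, passed as a whole (0.14). The replicate block gave 1977 higher and 1975 lower genes. Same-numbered libraries did not deviate together (correlation 0.01), and the numbers are not said to pair samples.

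All genes called: 812 to 1243 higher and 629 to 1112 lower with a library left out, 921 and 786 in DESeq2, 1051 and 877 with no filter, and 1151 higher with filtered log2(FPKM + 0.1). Members called higher were 3 or 4 with a library left out. Other heavy chains higher: 4 or 5 with a library left out, 3 in DESeq2 and 1 in unfiltered FPKM; lower, 0 or 1 with a library left out and 1 in limma-voom. Loading genes higher: 0 or 1 with a library left out, and 0 in DESeq2, with no filter and in each FPKM fit. Immunoproteasome genes lower: 0 or 1 with a library left out, 1 by library size only and with log2(FPKM + 1), and 2 with the replicate block. Constitutive subunits lower: 2 with the replicate block and 0 in unfiltered FPKM. Class II list lower: 0 or 1 with a library left out, and 0 in DESeq2, upper-quartile, no filter and unfiltered FPKM. Promoter factors lower: 1 or 2 with a library left out, 1 in DESeq2 and with no filter, and 0 in unfiltered FPKM, where 1 was higher. The cause of these shifts in the counts was not tested. Of 182 alternative values for 13 called list genes, 42 did not pass and none reversed. Low counts limit Ciita, H2-Aa and H2-Eb1.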
